A study of Mus musculus with 36 samples.

Results

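Complement is a set of plasma and cell surface proteins, and 9 of its genes are described here in mouse mammary tumors and in mammary glands without tumor cells. They are C1qa, C1qb and C1qc, which encode the chains of the recognition protein C1q, the convertase components C2, C4b and Cfb, the central component C3, and the receptors C3ar1 and C5ar1. The genes were chosen by name and matched by symbol and Ensembl identifier, and all 9 were found among the 21650 genes of the deposited expression table. RNA-seq was done on 36 libraries in 12 groups of 3. The libraries came from 4T1 tumors in BALB/c mice, Py230 tumors in C57BL/6 mice, and glands of both strains that received Matrigel without cells, each at 1, 3 and 6 weeks after inoculation.

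Complement is started along several routes that meet at the cleavage of C3. In the classical route C1q binds antibody or a target surface, its proteases C1r and C1s are activated, and these cleave C4 and C2 to form a C3 convertase. In the lectin route mannose-binding lectin, ficolins or collectins take the place of C1q, and in the alternative route factor B (Cfb) and factor D (Cfd) build the convertase on C3 itself. Cleavage of C3 and C5 releases the peptides C3a and C5a, which act through C3ar1 and C5ar1 on myeloid and other cells. In most tissues tissue macrophages are a main source of C1q, whereas C3, C4 and factor D are also made by adipocytes and fibroblasts, and the liver makes most plasma complement.

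All recipients were lactating females that had been inoculated through the teat duct of the third mammary gland. The 4T1 line is a metastatic BALB/c-derived mammary tumor line that carried a firefly luciferase gene, and the Py230 line was derived from a tumor that arose in a C57BL/6 MMTV-PyMT mouse, in which a mammary promoter drives an oncogene. Each model is 1 cell line in 1 strain, so that line and strain cannot be told apart in the comparison of the tumors. The tumor samples of a group are described as independent and the analyses as triplicate, but whether each library came from its own animal is not given in the sources used here, and p-values measure the spread between these libraries. The values are scores, centred on 0 and scaled to unit SD in every library across the 21650 genes, and not read counts. The depth of each library is unknown. Across genes, 1 score unit corresponded to 2.94 log2 units of the authors' mean normalized count, which gives the scale of the differences below but is no conversion for 1 gene.

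Markers set the tissue beside the labels. The mean score of 5 epithelial markers lay between 0.98 and 1.78 in the tumors and glands. Milk protein genes (4 markers) ranged from 1.07 to 2.37 in glands. At week 6 they were between -0.68 and -0.66 in 4T1 tumors and between 0.43 and 0.65 in Py230 tumors. The 3 hepatocyte markers in the table had mean scores between -1.60 and -0.53. Skeletal muscle markers ranged from -0.64 to 3.02 and differed widely within groups. Among tumors of week 3, the first replicate of each model had a lower adipocyte signal than its partners, with mean scores of 5 markers of 0.42 against 1.78 and 1.95 in 4T1 tumors and 0.14 against 1.58 and 1.84 in Py230 tumors, and results that rest on these 2 libraries are given with and without them.

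The 9 genes lie in 5 places of the mouse genome (mm10, GENCODE positions), all on the minus strand. The C1q genes are neighbours on chromosome 4, with C1qa at chr4:136895917-136898803, C1qc at chr4:136889804-136893065 and C1qb at chr4:136880129-136886187. C4b (chr17:34728380-34743882), Cfb (chr17:34856374-34862518) and C2 (chr17:34862604-34898265) lie in the class III region of the major histocompatibility complex, and C3 is at chr17:57203970-57228136. C3ar1 is at chr6:122847138-122856161 and C5ar1 at chr7:16246743-16259540. The annotation places Gm20547 over both C2 and Cfb, Zbtb12 within C2, and the microRNA genes Mir6972 and Mir6978 within Cfb and C3. C4b has the near-identical copy C4a, so that reads may have been divided between them.

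The upstream sequences of 2 genes are shown because C1qb and C3 stand for the 2 patterns described below, and both windows lie outside the gene bounds of GENCODE. RefSeq sequence (GRCm38.p6) of the 250 bases before the start site was found for 5 of the 9 genes and searched on both strands for 5 motifs. These were the PU.1 core GAGGAA, the STAT palindrome TTCNNNGAA, the interferon-stimulated response element GAAANNGAAA, the NF-kappaB site GGGNNTTNCC and the C/EBP site TTGCNNAA. Capitals mark the matches, and both sequences are written 5′ to 3′ on the minus strand, for C1qb from chr4:136886201-136886450 and for C3 from chr17:57228137-57228386.
C1qb: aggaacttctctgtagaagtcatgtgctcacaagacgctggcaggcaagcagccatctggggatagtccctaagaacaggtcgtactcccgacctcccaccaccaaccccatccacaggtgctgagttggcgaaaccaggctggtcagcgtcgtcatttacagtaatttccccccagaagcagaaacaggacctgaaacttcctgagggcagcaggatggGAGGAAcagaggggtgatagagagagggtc
C3: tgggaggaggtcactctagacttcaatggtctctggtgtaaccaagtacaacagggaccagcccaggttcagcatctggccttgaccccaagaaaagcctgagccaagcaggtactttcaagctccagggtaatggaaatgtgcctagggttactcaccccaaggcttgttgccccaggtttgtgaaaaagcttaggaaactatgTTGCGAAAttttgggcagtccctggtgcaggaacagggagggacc
The PU.1 core of C1qb lies at -30 to -25 from the start site and the C/EBP match of C3 at -45 to -38. C1qc also held a PU.1 core, at -193 to -188, and C3ar1 an NF-kappaB match at -14 to -5, whereas C5ar1 held none of the 5 motifs. Of 32851 mouse promoters of the same length, 23.3% held the PU.1 core, 9.56% the C/EBP site and 4.11% the NF-kappaB site. The STAT palindrome was held by 7.02% and the response element by 2.98%. A PU.1 match in a window is thus common, while matches to the other motifs are less so. Binding at the matches was not tested.

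Per kilobase of exon, C3 and the C1q genes were the most abundant of the 9. The authors' mean normalized count over all 36 libraries, divided by exon length in kilobases, was 5700 for C3, 5400 for C1qa, 4880 for C1qb, 2430 for C1qc and 1770 for C4b. The receptors and the remaining convertase components were far lower, with 294 for C3ar1, 154 for C5ar1, 118 for C2 and 100.0 for Cfb. Over the 36 libraries 2 sets stood out among the 9 genes. Scores of the C1q genes correlated with each other at r = 0.949 to 0.988 and with C3ar1 at 0.930 to 0.961, and those of C2, C4b and C3 correlated with each other at 0.836 to 0.860. Between C1qa and C3 the correlation was 0.0588. C5ar1 correlated with the C1q genes at 0.813 to 0.834, and Cfb did so at 0.776 to 0.825. With group means removed, C3 correlated with C2 at 0.585 and with C4b at 0.596, and C2 with C4b at 0.858. The C1q genes then correlated with each other at 0.992 to 0.994. The libraries share tissue composition, so these values describe the samples and carry no p-value.

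The C1q genes were higher in 4T1 tumors than in glands of the same strain at all 3 time points. With the spread estimated from all groups, they did not pass the test in any comparison of Py230 tumors with their glands. In 4T1 tumors the C1qa score was 2.09, 1.96 and 2.13 at week 1, 2.47, 1.90 and 1.79 at week 3, and 1.97, 1.91 and 1.92 at week 6. In BALB/c Matrigel glands it was 1.65, 1.31 and 1.80, then 1.55, 1.34 and 1.64, and finally 1.85, 1.48 and 1.23. Each 4T1 tumor was above every BALB/c gland of its week. The difference was 0.47 ± 0.14 (SE, n = 3 against 3, adjusted p = 0.0248, limma) at week 1, 0.54 ± 0.14 (adjusted p = 0.0368) at week 3 and 0.41 ± 0.14 (adjusted p = 0.0126) at week 6. C1qb and C1qc behaved alike, with differences of 0.52 and 0.48 at week 1, 0.58 and 0.54 at week 3, and 0.45 and 0.43 at week 6, and adjusted p between 0.00764 and 0.0333. Of all genes, 9.91% were called higher in this comparison at week 1, 2.1% at week 3 and 38.6% at week 6, so that the calls of week 6 stand against a broad background.

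Single libraries decided several of these calls. At week 1 none of the 3 C1q genes was called without 4T1 replicate 1, 4T1 replicate 3 or BALB/c gland replicate 2, where the C1qa difference was 0.46, 0.44 and 0.33. At week 3 the calls were lost without 4T1 replicate 1, with a C1qa difference of 0.33, and without BALB/c gland replicate 1, 2 or 3, with 0.56, 0.46 and 0.61. At week 6 they were lost without BALB/c gland replicate 3, with a C1qa difference of 0.27 and an adjusted p of 0.115 (limma), and C1qa was also lost under median and MAD scaling, with an adjusted p of 0.0667. With the spread taken from the 6 libraries compared alone, no C1q gene was called at weeks 1 and 3, and C1qa was not called at week 6 (adjusted p = 0.0517, limma).

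Py230 tumors held C1qa scores of 1.52, 1.73 and 1.76 at week 1, 1.49, 1.53 and 1.45 at week 3, and 1.65, 1.60 and 1.70 at week 6. C57BL/6 glands had 1.82, 1.57 and 1.66, then 1.46, 1.63 and 1.51, and then 1.49, 1.44 and 1.58. At week 6 all 3 Py230 tumors were above all 3 glands, by a mean of 0.15 that missed the threshold in limma, while at weeks 1 and 3 the groups overlapped. With the spread taken from the 6 libraries compared alone, the 3 C1q genes were called higher in Py230 tumors than in glands at week 6. Over all weeks the 9 4T1 tumors ranged from 1.79 to 2.47 and the 9 Py230 tumors from 1.45 to 1.76. The models differed by 0.56 ± 0.14 in C1qa at week 3 (adjusted p = 0.00324, limma), 0.43 ± 0.14 in C1qb (adjusted p = 0.0234) and 0.50 ± 0.13 in C1qc (adjusted p = 0.00620), against 11.9% of all genes called higher in 4T1 tumors. At week 1 the differences were 0.38, 0.30 and 0.36 and at week 6 0.28, 0.12 and 0.23, none of them called.

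The comparison of models at week 3 leaned on the first 4T1 replicate, whose C1qa score was 2.47. Without it C1qb and C1qc were no longer called, with differences of 0.23 (adjusted p = 0.205, limma) and 0.30 (adjusted p = 0.0715). C1qb was also lost without the first Py230 replicate (0.43, adjusted p = 0.0665, limma), while C1qa was called without any 1 library and was lost when both were left out (0.36, adjusted p = 0.101, limma). With the spread of the 6 libraries alone, none of the 9 genes was called between the models at week 3, and at week 6 the 3 C1q genes, C3ar1 and C5ar1 were.

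**Figure D1:**
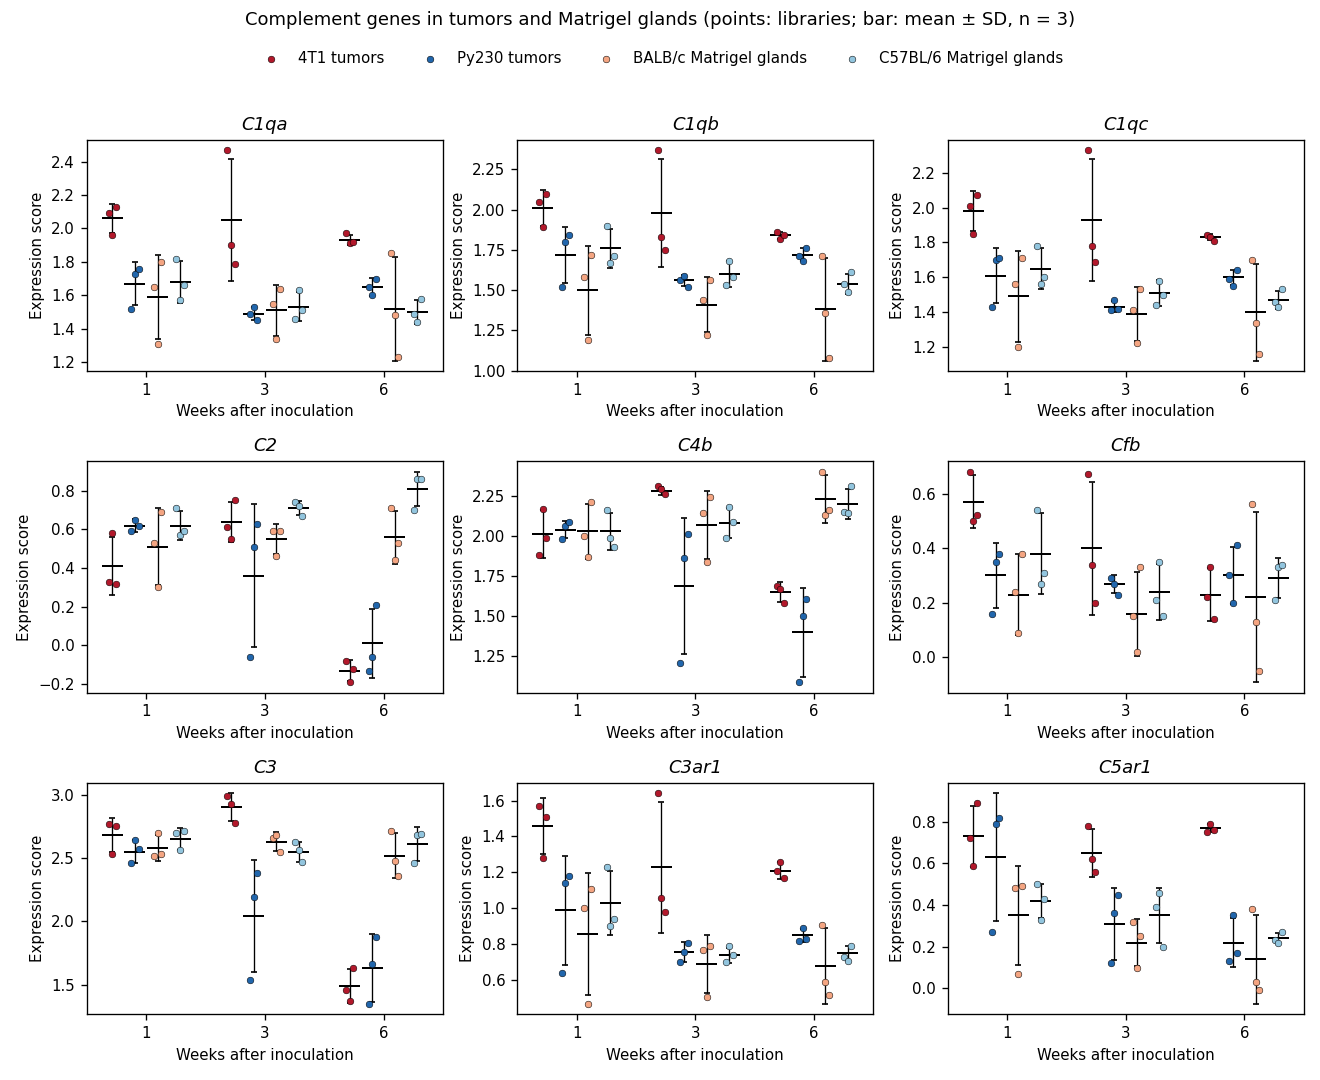
Expression scores (vertical axis, score units) of the 9 complement genes at 1, 3 and 6 weeks, with 1 point per library and bars for the mean ± SD of 3 libraries. C3 in 4T1 tumors falls from between 2.78 and 2.99 at week 3 to between 1.37 and 1.63 at week 6, while C5ar1 in 4T1 tumors stays between 0.56 and 0.89.

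C1q transcripts moved with macrophage markers. In bulk tissue, fewer cells of a type and less RNA per cell cannot be told apart. The mean score of 8 macrophage markers (Adgre1, Csf1r, Cd68, Cd163, Mrc1, Mertk, Fcgr1 and Cd14) was 1.60, 1.45 and 1.17 in 4T1 tumors at weeks 1, 3 and 6, and 1.27, 1.00 and 1.03 in Py230 tumors. In glands the 18 libraries ranged from 0.83 to 1.41. At week 3, 4T1 tumors were called above Py230 tumors in 6 of the 8 markers, and the remaining 2, Fcgr1 and Cd14, differed by 0.23 and 0.03. The share of all genes called higher at that week was 11.9%. The part of the macrophage markers in the C1q differences was not tested.

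The distance between C1q and the marker mean was not the same in all groups. The mean score of the 3 C1q genes lay above the macrophage marker mean by 0.30 to 0.45 in the 18 glands. In 4T1 tumors this distance was 0.38, 0.48 and 0.39 at week 1, 0.68, 0.45 and 0.48 at week 3, and 0.73, 0.67 and 0.68 at week 6. Py230 tumors had 0.36, 0.44 and 0.40, then 0.57, 0.50 and 0.39, and then 0.68, 0.54 and 0.67. At week 6 every tumor of both models therefore stood above every gland, although the macrophage marker mean itself was 1.16 to 1.18 in 4T1 tumors and 0.97 to 1.07 in Py230 tumors, within the range of the glands. This contrast was computed after the values had been seen and is given without a test.

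**Figure D2:**
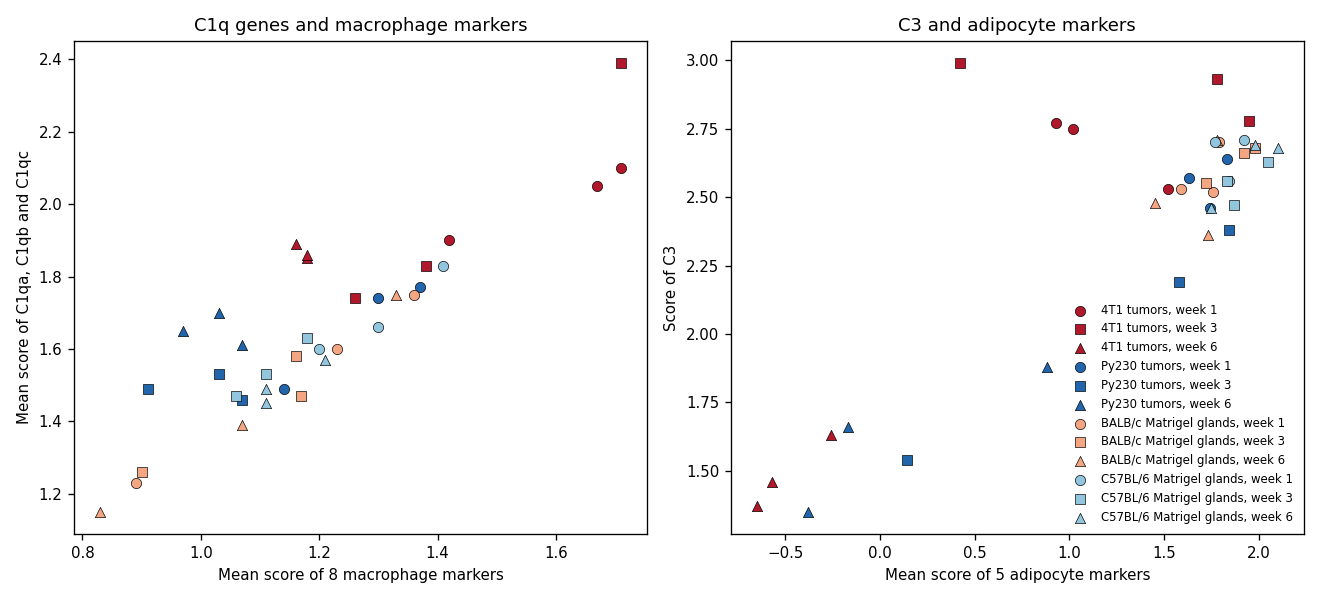
Left, mean score of C1qa, C1qb and C1qc against the mean score of 8 macrophage markers; right, score of C3 against the mean score of 5 adipocyte markers, with 1 point per library, color for model or strain and shape for the week. On the left the week 6 tumors lie 0.54 to 0.73 above their marker mean and the glands 0.30 to 0.45. On the right the 6 week 6 tumors have C3 scores from 1.35 to 1.88, and of the 2 week 3 tumors with few adipocyte transcripts, 1 Py230 tumor has 1.54 and 1 4T1 tumor 2.99.

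Within a library, the relation of C1qa to C1qb separated the strains. The score of C1qa minus that of C1qb was above 0 in 18 of 18 libraries of BALB/c origin, from 0.02 to 0.15 with a median of 0.09. In the 18 libraries of C57BL/6 origin it ranged from -0.09 to 0.00 with a median of -0.06, and it was above 0 in 1 of them. The groups did not overlap, in tumors as in glands. C1qc minus C1qb showed the same order, with medians of -0.02 and -0.10, and C1qa minus C1qc had medians of 0.11 and 0.04. In both of these pairs the strains overlapped. The ranges were -0.07 to 0.08 and -0.15 to -0.06 for the former, and 0.06 to 0.14 and 0.01 to 0.09 for the latter. These differences are small beside those between tumors and glands, but they enter the comparison of the models, where the difference in C1qb was the smallest of the 3 C1q genes at each week. The relation was noticed in the data and is described without a test.

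**Figure D3:**
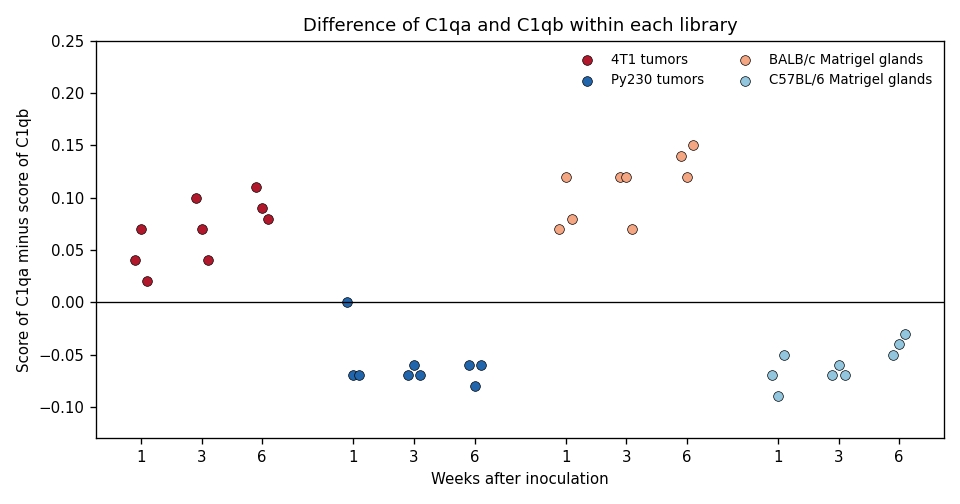
Score of C1qa minus score of C1qb (vertical axis) in each of the 36 libraries by model or strain and week. All 18 libraries of BALB/c origin lie between 0.02 and 0.15 and all 18 of C57BL/6 origin between -0.09 and 0.00.

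The receptors for C3a and C5a followed the C1q genes in part. C3ar1 scores in 4T1 tumors were 1.57, 1.28 and 1.51 at week 1, 1.64, 1.06 and 0.98 at week 3, and 1.21, 1.26 and 1.17 at week 6. Py230 tumors had 0.64, 1.14 and 1.18, then 0.70, 0.76 and 0.81, and then 0.82, 0.89 and 0.83. All 4T1 tumors were above all Py230 tumors of the same week. The difference between the models was 0.47 ± 0.16 (SE, n = 3 against 3) at week 1 (adjusted p = 0.0367, limma) and at week 3 (adjusted p = 0.0248), and 0.36 at week 6, where it was not called although the groups did not overlap. C3ar1 was the only 1 of the 9 genes called at week 1, against 11% of all genes called higher.

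Against BALB/c glands, whose 9 C3ar1 scores ranged from 0.47 to 1.11, the 4T1 tumors were higher by 0.59 ± 0.16 at week 1 (adjusted p = 0.0140, limma) and by 0.54 ± 0.16 at week 6 (adjusted p = 0.00465). At week 3 the difference of 0.54 was not called. Py230 tumors differed from C57BL/6 glands by -0.04, 0.02 and 0.10, none called with the spread of all groups. The difference of 0.10 at week 6 was called with the spread of the 6 libraries compared alone. The call between the models at week 1 was lost when 4T1 replicate 1 or 3 or Py230 replicate 1 was left out, where the difference was 0.41, 0.44 and 0.29. At week 3 leaving out 4T1 replicate 1 (0.26) or Py230 replicate 1 (0.44) or 2 (0.47) ended it. The call against glands at week 1 was lost without 4T1 replicate 1 (0.54), 4T1 replicate 3 (0.57) or BALB/c gland replicate 2 (0.40), and that at week 6 was kept without any 1 library.

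C5ar1 was the gene whose difference between the models held at week 6. In 4T1 tumors its scores were 0.72, 0.59 and 0.89 at week 1, 0.78, 0.62 and 0.56 at week 3, and 0.75, 0.79 and 0.76 at week 6. Those of Py230 tumors were 0.27, 0.79 and 0.82 at week 1, 0.12, 0.36 and 0.45 at week 3, and 0.13, 0.35 and 0.17 at week 6. The groups overlapped at week 1 and stood apart at weeks 3 and 6. The difference was 0.11 at week 1, not called, 0.34 ± 0.13 at week 3 (adjusted p = 0.0407, limma) and 0.55 ± 0.13 at week 6 (adjusted p = 0.00103). At week 6 it was the only 1 of the 9 genes called, against 24.1% of all genes called higher, and it was called without any 1 of the 6 libraries, with differences from 0.50 to 0.61. The call of week 3 was lost without 4T1 replicate 1 or 2 or Py230 replicate 1 or 2, with differences of 0.28, 0.36, 0.25 and 0.37.

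Relative to glands, C5ar1 was higher in 4T1 tumors by 0.39 ± 0.13 at week 1 (adjusted p = 0.0391, limma) and by 0.63 ± 0.13 at week 6 (adjusted p = 0.000143). The call at week 1 was lost without 4T1 replicate 1, 4T1 replicate 3 or BALB/c gland replicate 2, with 0.39, 0.31 and 0.25, and that at week 6 was kept without any 1 library. In the 18 glands C5ar1 ranged from -0.01 to 0.50. With the strain difference of the glands subtracted, the models differed by 0.65 ± 0.18 at week 6 (adjusted p = 0.00834), and C5ar1 was the only member called there, against 14.4% of all genes called higher.

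Neutrophil markers moved in the same direction at week 6. The mean score of 7 neutrophil markers, among them S100a8, S100a9 and Csf3r, was 0.39, 0.21 and 0.18 in 4T1 tumors at week 6 and -0.57, -0.64 and -0.72 in Py230 tumors, and 7 of 7 were called higher in 4T1 tumors. Macrophage markers were called in 0 of 8 at this time by limma, also 0 at an unadjusted p under 0.05. C5ar1 minus the macrophage marker mean was -0.41, -0.39 and -0.41 in the 4T1 tumors of week 6, and from -1.03 to -0.52 in Py230 tumors and glands. This was not particular to C5ar1. C3ar1 minus the same mean was 0.05, 0.08 and -0.01 in those 4T1 tumors. It was -0.50 to -0.15 in Py230 tumors and -0.47 to -0.18 in glands. At weeks 1 and 3 the neutrophil mean was -0.43 and -0.47 in 4T1 tumors, and -0.85 and -1.03 in Py230 tumors. The C5ar1 difference between the models was not called at week 1 and was called at week 3. From week 3 to week 6 in 4T1 tumors, the neutrophil mean went from -0.47 to 0.26 and the C5ar1 mean from 0.65 to 0.77. The part of neutrophils in the C5ar1 difference was not tested.

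C3 was high in all glands and in tumors of week 1, and at week 6 every tumor of both models was below every gland. In 4T1 tumors the score was 2.77, 2.53 and 2.75 at week 1, 2.99, 2.93 and 2.78 at week 3, and 1.46, 1.37 and 1.63 at week 6. Py230 tumors had 2.46, 2.64 and 2.57 at week 1, 1.54, 2.19 and 2.38 at week 3, and 1.35, 1.66 and 1.88 at week 6. In the 18 glands C3 ranged only from 2.36 to 2.71. From week 3 to week 6 it fell by 1.42 ± 0.14 in 4T1 tumors (adjusted p = 1.32e-08, limma), with 18.8% of all genes called lower and no overlap between the times. In Py230 tumors it fell by 0.52 ± 0.14 from week 1 to week 3 (adjusted p = 0.0134), where 7.17% of all genes were called lower and C3 was the only member called. The further change of -0.41 to week 6 was not called.

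At week 6, C3 was lower than in glands by similar amounts in both models, with differences of -1.03 ± 0.14 in 4T1 tumors (adjusted p = 1.33e-06, limma) and -0.98 ± 0.14 in Py230 tumors (adjusted p = 6.29e-06). In this comparison 21.5% of all genes were called lower in 4T1 tumors and 18.7% in Py230 tumors. Both calls were kept without any 1 library. The models differed in C3 by 0.13 at week 1 and by -0.14 at week 6, not called, and by 0.87 ± 0.14 at week 3 (adjusted p = 6.92e-05), where every 4T1 tumor was above every Py230 tumor. That difference was 0.57 or more without any 1 library or without both first replicates, and was called each time, but it was not called with the spread of the 6 libraries alone (adjusted p = 0.101).

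The course of C3 differed between the models. The difference between 4T1 and Py230 tumors rose by 0.74 ± 0.20 from week 1 to week 3 (adjusted p = 0.0167, limma) and then fell by 1.01 ± 0.20 from week 3 to week 6 (adjusted p = 0.000610). Against these, 4.89% of all genes were called higher in the first and 8.88% lower in the second of these tests. Without Py230 replicate 1 of week 3 the first was 0.49 and was not called (adjusted p = 0.0796), and the second was called without any 1 library. The decrease of C3 in Py230 tumors by week 3 likewise rested on that library, being -0.27 without it, and was also lost without Py230 replicate 2 of week 1 (-0.48, adjusted p = 0.0507, limma). Against C57BL/6 glands the C3 difference at week 3 was -0.52 ± 0.14 (adjusted p = 0.0133), a call that was lost without Py230 replicate 1 (-0.27) or C57BL/6 gland replicate 1 (-0.48).

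C4b and C2, the components of the classical convertase, followed C3 at week 6. C4b scores were 1.88, 2.17 and 1.99 in 4T1 tumors at week 1, 2.31, 2.29 and 2.26 at week 3, and 1.69, 1.67 and 1.58 at week 6. Py230 tumors had 1.98, 2.06 and 2.09, then 1.21, 1.86 and 2.01, and then 1.09, 1.50 and 1.61. The 18 glands ranged from 1.84 to 2.40, above every tumor of week 6. C2 scores were 0.33, 0.58 and 0.32 at week 1, 0.61, 0.55 and 0.75 at week 3, and -0.08, -0.19 and -0.12 at week 6 in 4T1 tumors. In Py230 tumors they were 0.59, 0.65 and 0.62, then -0.06, 0.51 and 0.63, and then -0.13, -0.06 and 0.21. The 18 glands lay between 0.30 and 0.86 and again above every week 6 tumor.

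Between week 3 and week 6 in 4T1 tumors, C4b fell by 0.64 ± 0.15 (adjusted p = 0.000638, limma) and C2 by 0.77 ± 0.12 (adjusted p = 9.02e-06). Together with C3 these were the 3 members called, and all 3 were called without any 1 library. Relative to glands at week 6, C4b differed by -0.58 ± 0.15 (adjusted p = 0.00125) in 4T1 tumors and -0.80 ± 0.15 (adjusted p = 7.91e-05) in Py230 tumors, and C2 by -0.69 ± 0.12 (adjusted p = 2.71e-05) and -0.80 ± 0.12 (adjusted p = 8.77e-06). In Py230 tumors C2 was already lower at week 3, with a difference of -0.35 ± 0.12 (adjusted p = 0.0406), where 6.9% of all genes were called lower. That call was lost without Py230 replicate 1, whose C2 score of -0.06 stood apart and without which the difference was -0.14, and also without C57BL/6 gland replicate 1, 2 or 3 (-0.34, -0.35 and -0.37). At week 3, 4T1 tumors exceeded Py230 tumors in C4b by 0.59 ± 0.15 (adjusted p = 0.00309), and by 0.35 without Py230 replicate 1, no longer called (adjusted p = 0.0564). C2 was not called between the models at any week, with differences of -0.21, 0.28 and -0.14.

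Adipocyte markers moved with this set. The mean score of Adipoq, Plin1, Cidec, Lep and Retn ranged from 1.45 to 2.10 in the 18 glands and was -0.57, -0.65 and -0.26 in 4T1 tumors and -0.38, -0.17 and 0.88 in Py230 tumors at week 6. All 5 were called lower than in glands at week 6 in both models, against 21.5% of all genes in 4T1 tumors and 18.7% in Py230 tumors. Fibroblast markers (Col1a1, Col3a1, Dcn and Pdgfra) were called lower in 1 of 4 in 4T1 tumors and in 2 of 4 in Py230 tumors. The mean score of the milk protein genes was also below that of every gland at week 6 in both models. It was -0.68 to -0.66 in 4T1 tumors and 0.43 to 0.65 in Py230 tumors, against 1.07 to 2.37 in glands. In 3 libraries of 4T1 tumors the adipocyte mean was below that of every gland and C3 above that of every gland, whose C3 scores ranged from 2.36 to 2.71. These were replicates 1 and 3 of week 1, with adipocyte means of 0.93 and 1.02 and C3 scores of 2.77 and 2.75, and replicate 1 of week 3, with 0.42 and 2.99. The Py230 replicate 1 of week 3 had 0.14 and 1.54. The part of adipocytes, or of the tissue that the other marker lists stand for, in the differences of C3, C4b and C2 was not tested.

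Cfb, which encodes the convertase subunit of the alternative route, was not called in any of the 25 comparisons by limma, and reached an unadjusted p under 0.05 in 3. Its scores were 0.68, 0.50 and 0.52 in 4T1 tumors at week 1, 0.67, 0.34 and 0.20 at week 3, and 0.22, 0.33 and 0.14 at week 6. The 9 Py230 tumors lay between 0.16 and 0.41 and the 18 glands between -0.05 and 0.56. All 3 4T1 tumors of week 1 were above the glands of their week, which had 0.24, 0.09 and 0.38, by a mean of 0.33 ± 0.12 (adjusted p = 0.0587, limma). Without BALB/c gland replicate 3 that difference was 0.40 and was called (adjusted p = 0.0368), the only call in 365 values of Cfb under other settings. Cfb correlated with the C1q genes (r = 0.776 to 0.825) more than with C2, its neighbour on the chromosome (r = 0.120).

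**Figure D4:**
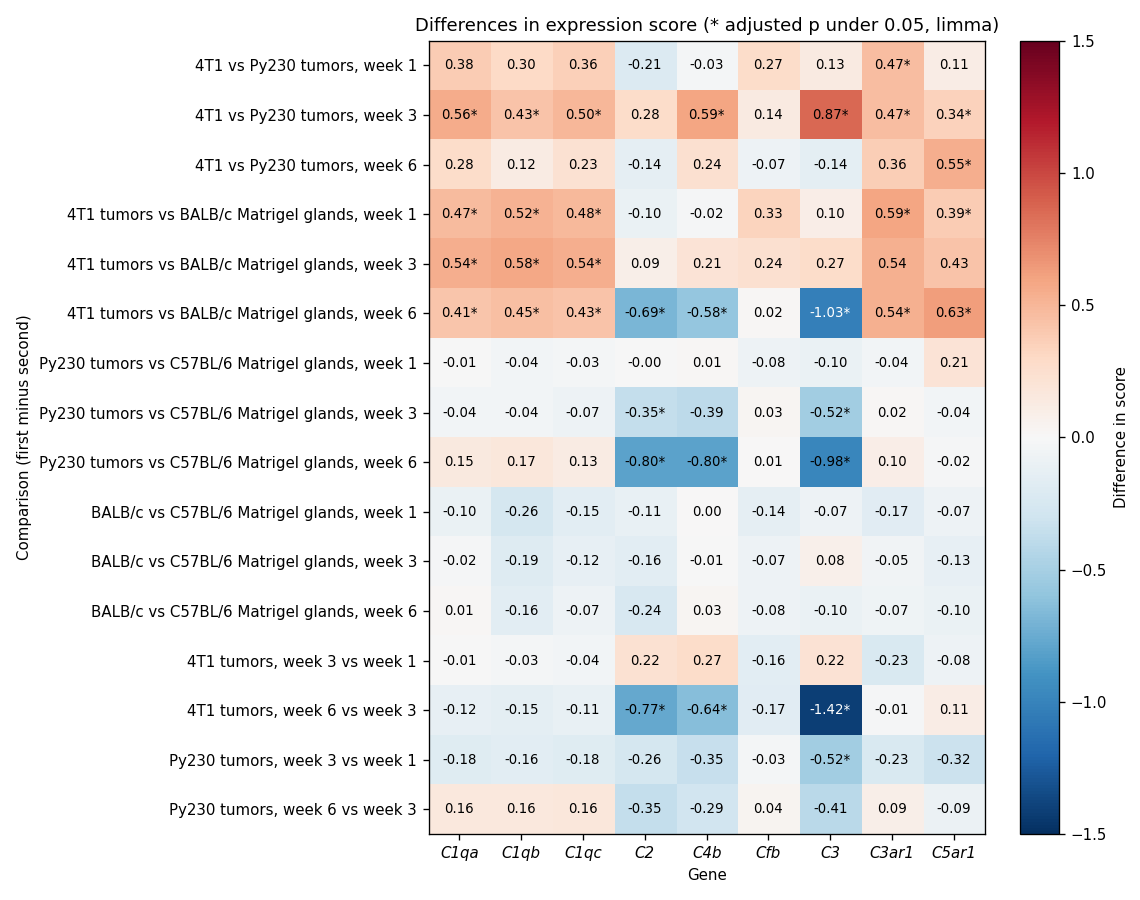
Difference in expression score for each of the 9 genes (columns) in 16 comparisons (rows), first group minus second, with an asterisk where the adjusted p was under 0.05. C2, C4b and C3 are negative in both rows of tumors against glands at week 6 (-0.58 to -1.03), while C1q and the receptors are positive in the 4T1 rows against glands (0.39 to 0.63).

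Counted over the 9 genes, the models differed in 1 at week 1, 7 at week 3 and 1 at week 6, all higher in 4T1 tumors. Of all genes, 11%, 11.9% and 24.1% were called higher, so the counts of weeks 1 and 6 were near or below these shares. The median difference of the 9 genes was 0.27, 0.47 and 0.23, beside 0.01, -0.01 and 0.04 for all genes. All 3 4T1 tumors were above all 3 Py230 tumors in 5, 7 and 5 of the 9 genes, while 20.5%, 13.9% and 35.1% of all genes stood apart in this way. The count of week 3 was 3 without 4T1 replicate 1 or Py230 replicate 1, and 1, C3, without both. Against BALB/c glands 5 genes were higher in 4T1 tumors at week 1, 3 at week 3, and 5 were higher and 3 lower at week 6. Beside these, 9.91%, 2.1% and 38.6% of all genes were called higher, and 21.5% were called lower at week 6. At week 1 the count was 0 without 4T1 replicate 1 or 3 or BALB/c gland replicate 2. At week 3 it was 0 without 4T1 replicate 1 or any BALB/c gland and 5 without 4T1 replicate 3, and at week 6 it was 5 without BALB/c gland replicate 3. Over all genes at week 6, cyclic loess normalization changed the shares called higher and lower to 28.3% and 27.7%, while the 8 calls of members were the same. Against C57BL/6 glands the counts in Py230 tumors were 0, 2 and 3, all lower. Of all genes, 0.00924%, 6.9% and 18.7% were called lower at weeks 1, 3 and 6. The count of week 3 was 0 without Py230 replicate 1 or C57BL/6 gland replicate 1, and 1 without C57BL/6 gland replicate 2 or 3.

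With the strain difference of the glands subtracted from the difference between the tumors, none of the 9 genes was called at week 1 by limma, against 0.305% of all genes, although 5 had an unadjusted p under 0.05. At week 3, C1qc (0.62 ± 0.19, adjusted p = 0.0410) and C3 (0.79 ± 0.20, adjusted p = 0.0168) were called higher in 4T1 tumors, against 2.64% of all genes. C3 was lost without Py230 replicate 1 (0.54), and C1qc on leaving out any of 8 of the 12 libraries, with differences from 0.42 to 0.65. The gap between the models also widened in C4b by week 3, by 0.62 ± 0.21 (adjusted p = 0.0407), which was lost on leaving out any of 8 of the 12 libraries, among them Py230 replicate 1 of week 3 (0.38).

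No member was called between the Matrigel glands of the strains at any week or between weeks within glands of either strain. Between strains 3.06%, 3.77% and 3.84% of all genes were called in either direction at weeks 1, 3 and 6. Between weeks it was 0.0139% and 0% in BALB/c glands and 0.129% and 0.217% in C57BL/6 glands. The largest member differences between strains were -0.26 in C1qb at week 1 and -0.24 in C2 at week 6. By limma, 0 of the 9 also had an unadjusted p under 0.05 in each of these 7 comparisons. In 4T1 tumors no member was called from week 1 to week 3, where 0.628% of all genes were and 0 members had an unadjusted p under 0.05. In Py230 tumors none was called from week 3 to week 6, where 6.03% of all genes were and 2 members had an unadjusted p under 0.05. Leaving out 4T1 replicate 1 of week 3 gave 1 call in the former, C3ar1. In the latter, C2, C4b and C3 were called lower without Py230 replicate 1 of week 3, and C2 and C3 without Py230 replicate 3 of week 6.

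The other genes of the pathway were counted from a list of 42, of which 34 were in the table. At week 3, 15 of them were higher and 3 lower in 4T1 than in Py230 tumors, with a median difference of 0.30, against 11.9% and 18.5% of all genes and a median of -0.01. Of the 9 genes of the classical and lectin routes, 8 were higher. The lowest p among them belonged to C1s2, a C1s protease gene (0.56 ± 0.10, adjusted p = 0.000128, limma), and Masp2, a lectin route protease (0.30 ± 0.05, adjusted p = 0.000201). Lower were C9, which forms the pore of the terminal complex (-0.52 ± 0.08, adjusted p = 2.48e-05), and the second C5a receptor C5ar2 (-0.41 ± 0.11, adjusted p = 0.00440). C5ar2 was thus lower in 4T1 tumors where C5ar1 was higher. C5ar2 was also lower in BALB/c than in C57BL/6 glands, with differences of -0.52, -0.49 and -0.53 at weeks 1, 3 and 6, all called. The Masp2 mean was -0.90, -0.92 and -0.84 in BALB/c glands at these weeks and -1.28, -1.06 and -1.10 in C57BL/6 glands. In 4T1 tumors of week 3 it was -0.98, below the BALB/c gland mean of that week. Both Masp2 and C9 were low, with mean normalized counts of 17.7 and 14.5.

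Against glands at week 6, 17 of the 34 genes were lower and 7 higher in 4T1 tumors, where 21.5% of all genes were lower and 38.6% higher. In Py230 tumors 21 were lower and 2 higher, against 18.7% and 28.8% of all genes. The membrane regulators, which protect host cells from complement, were lower in 6 of 6 in both models, by unequal amounts. The Cr1l mean was 0.75 in 4T1 tumors and 0.86 in BALB/c glands of week 6, and 0.76 in Py230 tumors and 0.89 in C57BL/6 glands. In 4T1 tumors the lowest p among the decreases belonged to Cd55 (-1.31 ± 0.10, adjusted p = 1.37e-10, limma), which encodes decay-accelerating factor, and Cd59a (-1.16 ± 0.13, adjusted p = 3.46e-08), which encodes an inhibitor of the terminal complex. In Py230 tumors it belonged to C1s2 (-0.73 ± 0.10, adjusted p = 1.74e-06) and Cd46 (-0.43 ± 0.06, adjusted p = 1.79e-06), another regulator. Higher than in glands were C1qbp, which encodes a C1q-binding mitochondrial protein (0.27 ± 0.04 in 4T1, adjusted p = 7.16e-06), and C5ar2 (0.55 ± 0.11, adjusted p = 7.47e-05) in 4T1 tumors. In Py230 tumors these were C1qbp (0.33 ± 0.04, adjusted p = 9.04e-07) and C9 (0.59 ± 0.08, adjusted p = 2.14e-06).

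Of 7 receptor genes of the pathway, 5 were higher and 0 lower in 4T1 tumors than in BALB/c glands at week 6, in a comparison in which 38.6% of all genes were higher. These were C1qbp, C5ar2, Vsig4, and Itgam and Itgb2, the subunits of complement receptor 3, named here after their values had been seen. In Py230 tumors 1 of the 7, C1qbp, was called. Between the models at week 6, 9 of the 34 genes were higher and 6 lower in 4T1 tumors, shares near the 24.1% and 16.7% of all genes. The lowest p in each direction belonged to Masp1 (0.97 ± 0.11, adjusted p = 6.41e-08, limma) and Masp2 (0.43 ± 0.05, adjusted p = 4.21e-07) and to Cd55 (-0.89 ± 0.10, adjusted p = 1.04e-07) and C9 (-0.62 ± 0.08, adjusted p = 5.22e-07). Masp2 and C9 are the genes of low count named above, and the Masp2 means of the glands also differed between the strains. At week 1 the counts were 4 and 2, again near the 11% and 8.43% of all genes, with Itgam (0.55) and Itgb2 (0.57) higher and Colec11 (-0.35) and C5ar2 (-0.35) lower. Colec11 was also lower in BALB/c than in C57BL/6 glands of week 1, with means of -1.15 and -0.86. Its mean normalized count was 21.2.

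**Figure D5:**
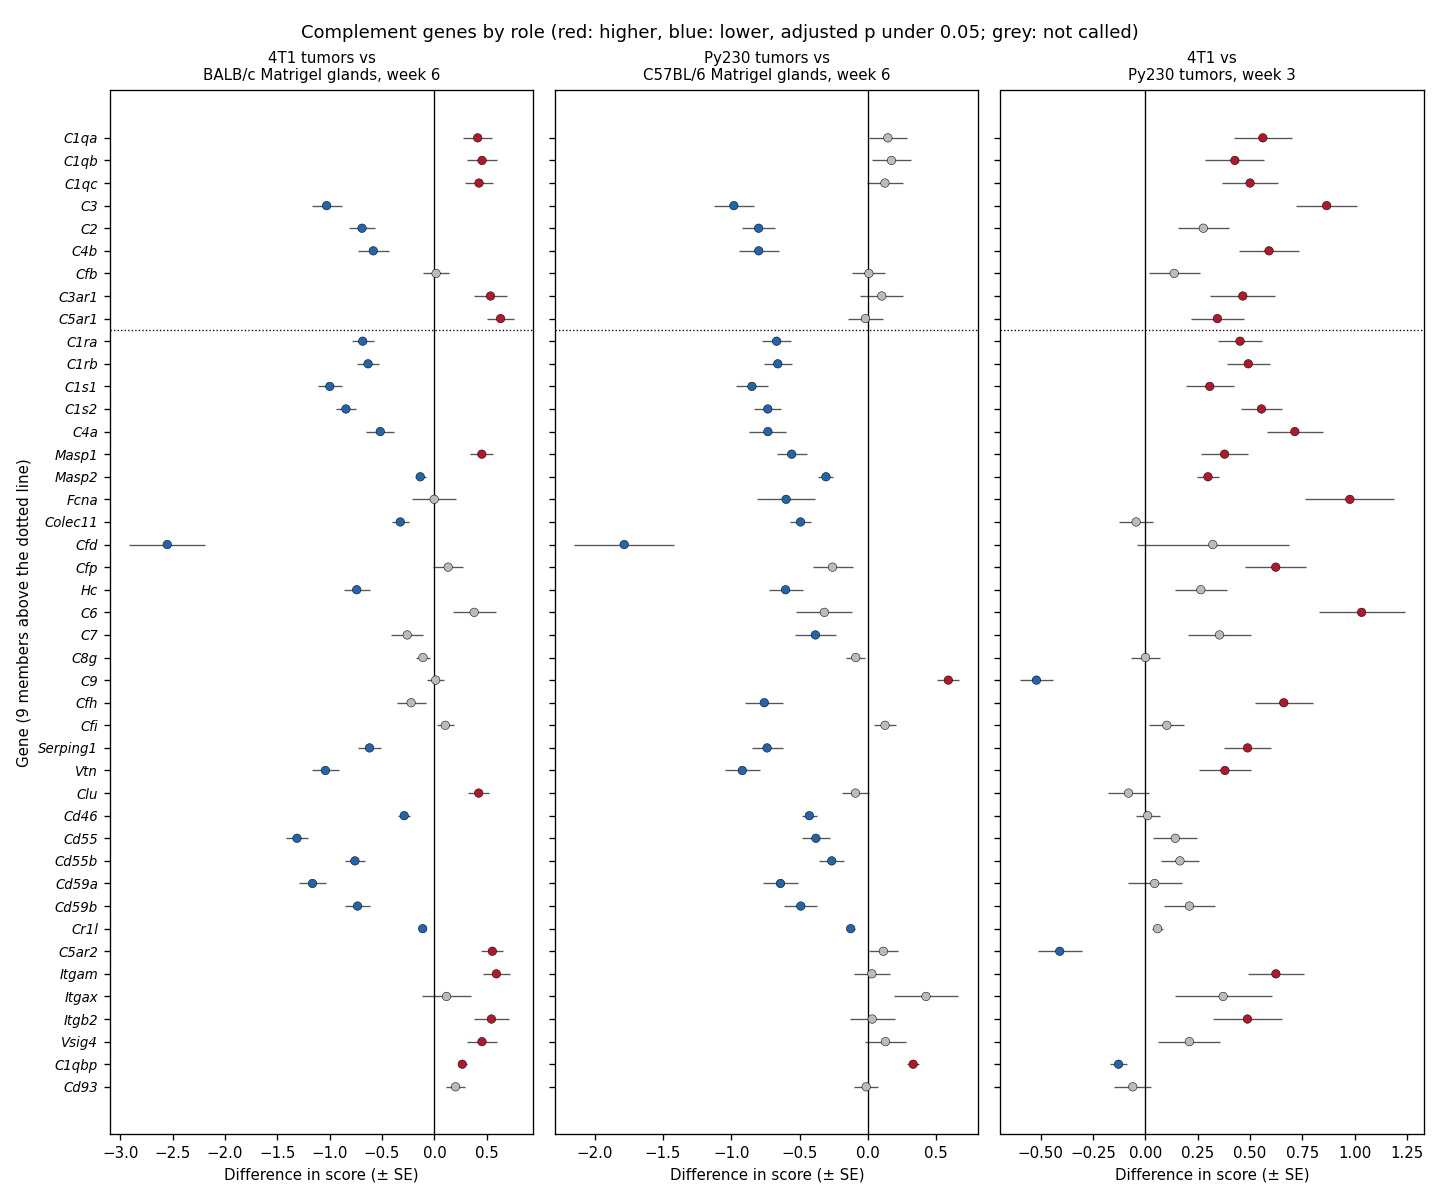
Difference in expression score (points) with its SE (bars) for the 9 members, above the dotted line, and 34 other complement genes in 3 comparisons, with red for called higher, blue for called lower and grey for not called. At week 6, 17 of 34 genes in 4T1 tumors and 21 of 34 in Py230 tumors are lower than in glands, and at week 3, 15 of 34 are higher in 4T1 than in Py230 tumors.

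Genes whose scores ran closest to those of the members over the 36 libraries were named by rank of Pearson's r among genes whose mean normalized count reached 100. The C1q mean was nearest to Fcer1g (r = 0.969), Fermt3 (0.961) and Was (0.960), and among the genes nearest to C3ar1 were Cd53 (0.977) and Nckap1l (0.967). C5ar1 was nearest to Apbb1ip (0.922), B4galt5 (0.914) and Hmox1 (0.912), and Cfb to Gm5431 (0.892), Cd48 (0.885) and Clec4a3 (0.882). C4b ran with C4a (0.967), the near-identical copy, and with Serping1 (0.936) and C1rb (0.931), 2 genes of its own pathway. C3 was nearest to Irf4 (0.947), Chp2 (0.943) and Dtnbp1 (0.942). With group means removed, the value for C4a rose to 0.988, while those for the partners of C3 fell to between 0.670 and 0.810. Cd53 is itself 1 of the leukocyte markers, and the likeness is given as a description.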

How the data were processed

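RNA-seq was done on tumors and Matrigel glands in triplicate. By the authors, stranded libraries were sequenced as paired reads, aligned to mm10 with STAR, counted per gene with summariseOverlaps and normalized with DESeq2. Versions, the annotation and the strand setting of the counting are not given in the sources used here. The reference is of C57BL/6 origin, and its effect on reads of BALB/c origin was not tested. The expression values that the authors deposited are a score for 21650 genes, with mean 0 and SD 1 in each library and no description of that step. They are not counts, so no count model was used and the depth is unknown. The authors' mean normalized count over the 36 libraries, taken from their comparison tables, served for filters and for levels per kilobase. Their own comparisons (log2 fold changes and p-values) and a table of hallmark gene sets were not used. All 36 sample columns matched a label, and 5384 genes without a symbol in the authors' table were named from a reference table.

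Group means of all 12 groups were fitted with limma 3.58.1 and statmod 1.5.0 in R 4.3.3, with empirical Bayes moderation (trend, robust), and Benjamini-Hochberg adjustment over all 21650 genes in each of 25 comparisons. A gene was called at an adjusted p under 0.05. Comparisons share groups, and all groups share 1 estimate of the spread. An exact permutation test of 3 against 3 libraries cannot give a p below 0.1. The fit was tested on simulated data. All 9 genes are named, with the 2 called genes of smallest p in each direction from the other complement genes and the 3 genes of highest correlation, of which 1 is not reported here. The members and the lists were chosen with earlier results of these data known. Replicate numbers were checked for pairing through correlations of deviations from group means. The alternatives were cyclic loess, quantile and median and MAD scaling, a filter at a mean normalized count of 10, moderation without trend, the compared libraries alone, a replicate block and leaving out each library. Leaving out both first replicates of the week 3 tumors was added after the data had been seen. No 2 libraries agreed closely enough to be 1 library deposited again, with a highest correlation of 0.993 between libraries.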

Additional observations from a re-analysis of the deposited data

Results flagged for a closer look

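Of the tests of a difference between models beyond that of the glands, or between weeks, 6 results passed the threshold in limma. With the strain difference of the Matrigel glands subtracted, 4T1 exceeded Py230 tumors at week 3 by 0.62 in C1qc and by 0.79 in C3, and at week 6 by 0.65 in C5ar1. The gap between the models had widened by week 3 relative to week 1, by 0.62 in C4b and by 0.74 in C3, and from week 3 to week 6 the change in C3 was -1.01. The C5ar1 value and the last C3 value were called without any 1 library. The other 4 were each lost when Py230 replicate 1 of week 3 was left out, with 0.61, 0.54, 0.38 and 0.49 for C1qc, C3, C4b and C3 in the order given. No formal search for outlying libraries was made in groups of 3. The first replicates of the week 3 tumors were singled out after their values had been seen.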

How the results depend on the processing

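Of the 40 calls of members, 40 were kept under cyclic loess normalization, 40 under moderation without trend, 40 with the filter on low values, 39 under quantile normalization and 38 under median and MAD scaling, and none turned its direction. With the compared libraries alone, 16 were kept and 24 lost. The counts of members called then became 0 between the models at week 3, against glands at week 1 and week 3 in 4T1 tumors and at week 3 in Py230 tumors, in Py230 tumors from week 1 to week 3, for the subtracted difference at week 3 and for the change of the models' difference from week 1 to week 3. They became 5 between the models at week 6, 7 in Py230 tumors against glands at week 6 and 2 for the subtracted difference at week 6. Between the models at week 1 the count was 3 under cyclic loess and 2 with the filter, instead of 1.

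Leaving out 1 library kept 206 of 276 calls. Between the models the counts ranged from 0 to 3 at week 1, 3 to 8 at week 3 and 1 to 1 at week 6. Against BALB/c glands they ranged from 0 to 6, 0 to 5 and 5 to 8 in 4T1 tumors, and against C57BL/6 glands from 0 to 3 at week 3 and 3 to 3 at week 6 in Py230 tumors. The range was 0 to 1 in 4T1 tumors from week 1 to week 3, 0 to 4 in Py230 tumors from week 1 to week 3 and 0 to 3 from week 3 to week 6. It was 0 to 5 for the subtracted difference at week 3, 0 to 3 for the change from week 1 to week 3 and 1 to 2 for that from week 3 to week 6. Without 4T1 replicate 1 and Py230 replicate 1 of week 3 together, 5 of 21 calls were kept. The counts then were 1 between the models at week 3, 1 in 4T1 tumors from week 1 to week 3, 3 in Py230 tumors from week 3 to week 6 and 0 against glands at week 3 in both models, in Py230 tumors from week 1 to week 3, for the subtracted difference at week 3 and for the change from week 1 to week 3. Where a group was left with 2 libraries, the spread came from all groups, as it did in the full set.

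With the replicate number as a block, all 40 calls were kept, and the counts rose to 2 between the models at week 1 and to 4 for the subtracted difference at week 3. Same-numbered libraries correlated above 0.1 in 23 of 60 pairs, from -0.466 to 0.789. All 3 pairs did so in 2 of 20 comparisons, both of glands, where 0 members were called with and without the block. In the others the libraries share only a number.

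Over all genes, scaling moved the share of calls that were higher by over 10 percentage points. Under cyclic loess it went from 64.2% to 50.6% in 4T1 tumors against glands at week 6, from 64.6% to 48.6% in 4T1 tumors from week 3 to week 6, and from 59.1% to 49% at week 6 in 4T1 against Py230 tumors. For the change of the models' difference from week 3 to week 6 it went from 66.8% to 49.3%, and for the subtracted difference at week 3 from 28.8% to 39.5%, also under cyclic loess, as did the share in Py230 tumors from week 1 to week 3, from 64.1% to 53.4%. Under median and MAD scaling it went from 39.1% to 50.7% between the models at week 3, from 64.6% to 77.2% in 4T1 tumors against glands at week 3, from 40.4% to 51.1% in 4T1 tumors and from 64.1% to 53% in Py230 tumors from week 1 to week 3, from 28.8% to 40.4% and from 56.4% to 68.9% for the subtracted difference at weeks 3 and 6, and from 32% to 44.1% for the change of the models' difference to week 3. The median of all genes moved by 0.064 or less. Uncalled values changed sign in 12 of 1295 cases under other settings, in 121 of 1344 without 1 library and in 10 of 69 without both first replicates. The depth of the libraries is unknown, so that precision rests on the spread between libraries within groups. That spread was estimated over all 12 groups together and is not specific to the groups compared.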
